A study of Mus musculus with 4 samples.

Results

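The muscle actins Acta1, Actc1, Acta2 and Actg2 were followed by name through single-cell RNA profiles of mouse muscle stem cells, 4 genes of the 31055 features counted. All 4 were found under these symbols. The cells were GFP-positive cells of Tg:Pax7-nGFP mice aged 2 to 4 months, in which a Pax7-driven transgene marks muscle stem cells with nuclear GFP. There were 4 libraries, 1 each. The activated EOM and activated TA cells came from extraocular muscle (EOM, the muscles that move the eye) and from the limb muscle tibialis anterior (TA), and had spent 4 days in culture on Matrigel, in growth medium and 3% oxygen. The quiescent EOM and quiescent TA cells came from the same muscles and were profiled straight after sorting. All 4 libraries carried the transgene, and how many mice stood behind each is not given in the sources used here.

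Vertebrate muscle builds its thin filaments from actins that are almost identical as proteins but are encoded by separate genes. Acta1 encodes skeletal alpha actin, the actin of adult skeletal fibres. Actc1 encodes cardiac alpha actin, the actin of the heart, which developing and regenerating skeletal muscle also makes. Acta2 encodes smooth muscle alpha actin, best known from vessel walls and myofibroblasts, and found in myoblasts too. Actg2 encodes the gamma actin of enteric smooth muscle and is grouped here with the alpha actins although its name is gamma. Serum response factor (SRF) binds CArG boxes in the promoters of muscle actin genes, and the myogenic factor Myog marks the step at which myoblasts leave the cycle and turn on contractile genes.

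In the GENCODE annotation of GRCm38 all 4 genes lie on the minus strand. Acta1 spans chromosome 8 from 123891769 to 123894751, and Actc1 spans chromosome 2 from 114047282 to 114053548. Acta2 spans chromosome 19 from 34241090 to 34255590, and Actg2 spans chromosome 6 from 83512905 to 83536265. The coding sequences of Acta1 and Actc1, 1134 bases each, were identical at 86.2% of their bases, those of Acta1 and Acta2 at 85.4%, and those of Actc1 and Acta2 at 82.5%. In the last 400 bases of each transcript 0% of the 50-base words were shared with any other actin transcript. Within the coding part at most 2.58% were shared, so reads from there can be uncertain between paralogs. How often this occurred was not tested.

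The sequence before each start site is shown because the CArG box is the element that the muscle actin promoters are known for, and because Acta1, Actc1 and Acta2 took different values in EOM and TA. RefSeq promoters (GRCm38.p6) were found for these 3 genes. Each line gives the 250 bases before the RefSeq start on the minus strand, with capitals marking CArG boxes (CC, 6 bases of A or T, then GG) and 10-base stretches of the same form with 1 core base G or C. The windows are chr8:123894776-123895025 for Acta1, chr2:114052876-114053125 for Actc1 and chr19:34255374-34255623 for Acta2. The Actc1 window and part of the Acta2 window lie inside the span that GENCODE gives these genes.
Acta1: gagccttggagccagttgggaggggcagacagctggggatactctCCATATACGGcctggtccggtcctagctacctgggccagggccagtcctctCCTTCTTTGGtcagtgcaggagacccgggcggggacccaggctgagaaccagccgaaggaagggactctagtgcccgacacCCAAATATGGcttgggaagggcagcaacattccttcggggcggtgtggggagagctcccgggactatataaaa
Actc1: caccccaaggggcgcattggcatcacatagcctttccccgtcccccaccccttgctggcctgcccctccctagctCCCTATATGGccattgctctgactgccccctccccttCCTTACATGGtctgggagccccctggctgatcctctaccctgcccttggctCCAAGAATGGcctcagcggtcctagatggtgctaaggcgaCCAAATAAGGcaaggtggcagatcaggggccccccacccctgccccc
Acta2: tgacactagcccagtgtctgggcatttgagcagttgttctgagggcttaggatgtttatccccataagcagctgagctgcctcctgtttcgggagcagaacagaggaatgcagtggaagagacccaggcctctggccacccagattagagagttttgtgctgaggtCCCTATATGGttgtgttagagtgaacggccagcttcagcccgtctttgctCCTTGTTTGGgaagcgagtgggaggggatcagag
The Acta1 window held 1 CArG box, CCAAATATGG, which starts 73 bases before the RefSeq start, and the Actc1 window held 1, CCAAATAAGG, at 47 bases. The Acta2 window held none of the full form, and 2 stretches with 1 core base G or C, CCCTATATGG at 84 bases and CCTTGTTTGG at 34 bases. The first of these also stood in the Actc1 window, at 175 bases. A full CArG box occurred in 1.47% of the 32851 RefSeq promoters and either form in 8.59% (windows of the same length; the pattern reads alike on both strands). These are matches of letters, not sites measured in these cells.

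After filtering, 5566 activated EOM, 4284 activated TA, 3596 quiescent EOM and 2902 quiescent TA cells remained. Median depth was 21284, 23365, 4664 and 5030 UMIs (unique molecular identifiers, each counting 1 captured RNA molecule) in that order. Over the limit of 10% mitochondrial UMIs were 20.9% of barcodes in activated EOM, 24.7% in activated TA, 11.7% in quiescent EOM and 40.5% in quiescent TA. Between 5 and 12 cell barcodes were shared by any 2 libraries, at most 0.197% of the smaller. Pax7 was present in every library, at 75.4 CPM (UMIs of a gene scaled to a common library total) in activated EOM, 55.1 in activated TA, 287 in quiescent EOM and 387 in quiescent TA. With 1 library per group there was no replicate check and no test was made. Intervals are exact 95% Poisson or binomial intervals, which cover counting error only.

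Activated EOM and TA cells held similar totals of muscle actin RNA, made up of different genes. Acta1 stood at 1186 CPM in activated EOM (1180 to 1192), against 3301 CPM in activated TA (3290 to 3312). Actc1 stood at 1003 CPM in activated EOM (997 to 1008), against 346 CPM in activated TA (343 to 350). Acta2 stood at 2027 CPM in activated EOM (2019 to 2035), against 1178 CPM in activated TA (1171 to 1184). Skeletal actin was the lower one in EOM, and cardiac and smooth muscle actin were the higher ones. Actg2 was close to absent from both, at 1.16 CPM in activated EOM (0.973 to 1.36) and 1.24 CPM in activated TA (1.03 to 1.47), and 2.17% and 2.22% of cells held a UMI of it.

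The ratio of activated EOM to activated TA was 0.359 for Acta1 (0.357 to 0.362), 2.89 for Actc1 (2.86 to 2.93), 1.72 for Acta2 (1.71 to 1.73) and 0.932 for Actg2 (0.729 to 1.19). With a limit of 5% mitochondrial UMIs, which left 614 activated EOM and 490 activated TA cells, the log2 ratio of Acta1 was -2.34 in place of -1.48. Counted as at least 2-fold apart at 20 CPM or more in either library, 1 of the 4 genes was higher in activated EOM, Actc1, against 2.06% of the 5297 genes tested. Likewise 1 of the 4 was lower, Acta1, against 0.944% of those genes. Of the genes tested 50 had a higher ratio than Actc1 and 20 a lower ratio than Acta1, so both lay near the ends of the range. Acta2 did not reach 2-fold, and 150 genes had a higher ratio. The cytoplasmic actins, which build the cytoskeleton of most cells, differed less: Actb stood at 3272 CPM in activated EOM, against 3555 in activated TA, and Actg1 at 3167 and 4053 CPM.

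Summed over the 4 genes, muscle actin came to 4217 CPM in activated EOM, against 4827 in activated TA. Of these UMIs, Acta1 took 28.1%, Actc1 23.8% and Acta2 48.1% in activated EOM, against 68.4% Acta1, 7.18% Actc1 and 24.4% Acta2 in activated TA. Acta2 has the longest transcript of the 3, so per kilobase of transcript its share was 39.9% in activated EOM, against 18.7% in activated TA, and that of Acta1 32.8%, against 73.7%. Within the sarcomeric pair of Acta1 and Actc1, whose transcripts are of nearly equal length, Actc1 made up 45.8% of UMIs in activated EOM (45.6 to 46.0) and 9.50% in activated TA (9.40 to 9.59). With a limit of 5% mitochondrial UMIs the share was 40.5% in the 614 activated EOM cells left, against 3.29% in the 490 activated TA cells left. As a mean over cells with at least 10 muscle actin UMIs it was 44.7% in activated EOM, against 5.75% in activated TA.

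**Figure D1:**
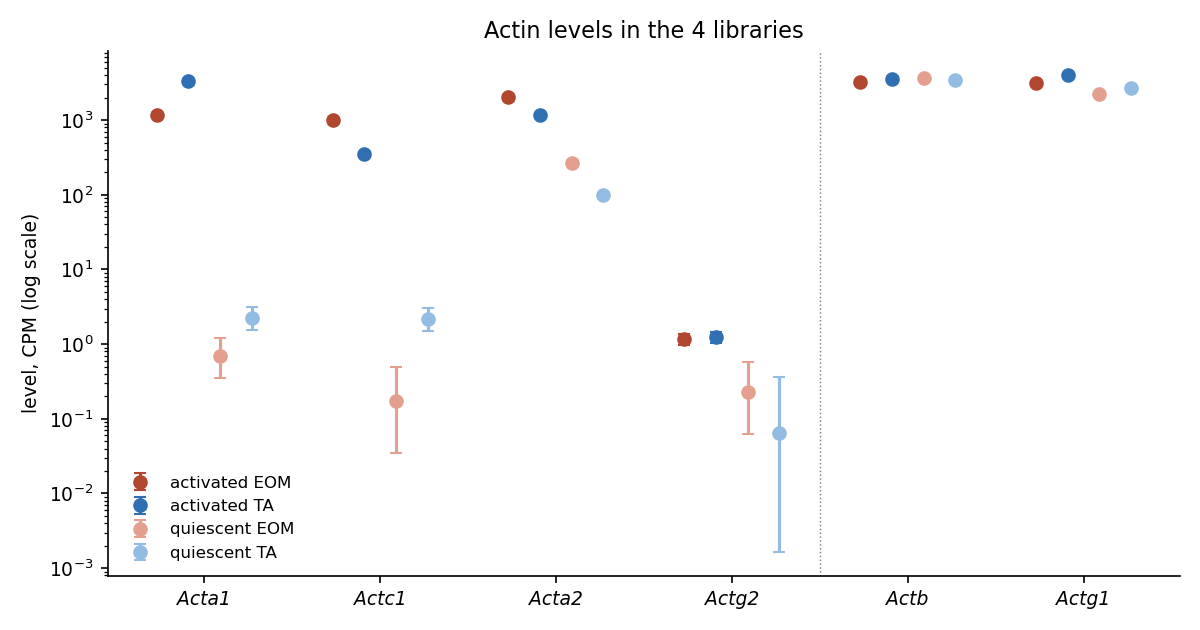
Level of each actin gene in CPM on a log axis (y) for the 4 libraries (points, 1 library each), with exact 95% Poisson intervals as bars. The muscle actins differ between activated EOM and TA in both directions (Acta1 at 1186 and 3301 CPM, Actc1 at 1003 and 346 CPM), while Actb stays between 3272 and 3639 CPM in all 4.

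In cells taken straight from the muscle, smooth muscle actin was nearly the whole of the muscle actin RNA. Acta2 stood at 268 CPM in quiescent EOM (260 to 275), against 99.1 CPM in quiescent TA (94.2 to 104), a ratio of 2.70 (2.55 to 2.86). With a limit of 5% mitochondrial UMIs, which left 46 quiescent TA cells, the log2 ratio was 0.42 in place of 1.42 and Acta2 was no longer 2-fold higher. At an equal depth of 2000 UMIs per cell, 27.3% of quiescent EOM cells held an Acta2 UMI (25.8 to 28.8), against 9.88% of quiescent TA cells (8.80 to 11.03), and without thinning the shares were 44.9% and 19.02%. In quiescent TA 16 cells were endothelial-like, with a median of 5195 UMIs, and 0 of them held an Acta2 UMI. For cells with a UMI this allows a share of up to 18.8% by 3 counts and 20.6% by the exact interval. With 16 cells this limit is wide, so it cannot tell whether the 19.02% of quiescent TA lies above such a background. The 44.9% of quiescent EOM was above the limit, though no such cells were found in the EOM library itself. By level, the 16 cells held 0 Acta2 UMIs among 103488 UMIs, against 99.1 CPM in quiescent TA. The highest count in 1 quiescent TA cell was 37 Acta2 UMIs. The 16 cells also held RNA of muscle genes: 6 held a Myod1 UMI (976 CPM, against 1197 in quiescent TA) and 4 a Pax7 UMI. Where this RNA came from was not tested, so these cells are an uncertain measure of background. The part of free RNA in the Acta2 levels was not tested. Acta2 was the 1 of the 4 genes at least 2-fold higher in quiescent EOM at 20 CPM, against 3.02% of 5425 genes, and 0 of the 4 were lower, against 2.56%. Of muscle actin UMIs, Acta2 made up 99.6% in quiescent EOM, against 95.7% in quiescent TA.

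The sarcomeric actins were at trace level in the quiescent cells. Acta1 had 12 UMIs in quiescent EOM (0.686 CPM, 0.354 to 1.20) and 34 UMIs in quiescent TA (2.22 CPM, 1.54 to 3.11). Actc1 had 3 UMIs in quiescent EOM (0.171 CPM) and 33 in quiescent TA (2.16 CPM), and 32 of the 33 lay in 1 cell that also held Myog. Leaving out the cells with a Myog UMI, 6 in quiescent EOM and 7 in quiescent TA, Actc1 had 3 UMIs in quiescent EOM and 1 in quiescent TA. Acta1 was unchanged by this, at 12 in quiescent EOM and 34 in quiescent TA, so 0 of them lay in a Myog-holding cell. In the endothelial-like cells, an uncertain background as described above, 1 of 16 held an Acta1 UMI. These traces of Acta1 thus cannot be set apart from free RNA at this depth. Actg2 had 4 UMIs in quiescent EOM and 1 in quiescent TA.

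From quiescent to activated cells all of Acta1, Actc1 and Acta2 were higher in both muscles. Acta1 was 1730-fold higher in activated than in quiescent EOM (990 to 3347) and 1484-fold higher in activated than in quiescent TA (1062 to 2143). Actc1 was 5848-fold higher in activated than in quiescent EOM, an estimate that rests on 3 quiescent UMIs and has the interval 2001 to 28358. In TA Actc1 was 160-fold higher in activated than in quiescent cells (114 to 233), with nearly all quiescent UMIs in the single cell just named. Without Myog-holding quiescent cells its log2 ratio was 8.35 in place of 6.78. Acta2, already present in quiescent cells, was 7.58-fold higher in activated than in quiescent EOM (7.36 to 7.80) and 11.9-fold higher in activated than in quiescent TA (11.3 to 12.5). By the same rule of 2-fold at 20 CPM, 3 of the 4 genes were higher in activated EOM, against 27.5% of 6423 genes, and 3 in activated TA, against 30.5% of 6302 genes. None of the 4 was lower, against 24.4% of genes in EOM and 24.6% in TA. The activated EOM against TA and the activated against quiescent comparisons share libraries, so their values are not independent of each other.

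Cells were then set side by side at the same level of Myog, to compare cells with Myog held level. Myog itself was close between the libraries, at 1483 CPM in activated EOM, against 1552 in activated TA. Each activated cell was thinned to 10000 UMIs, which left 5214 EOM cells and 4022 TA cells and left out 352 and 262 shallower ones. Cells were put into 6 classes by their Myog UMIs: 0, 1, 2 to 4, 5 to 9, 10 to 19, and 20 or more. These held 1589, 879, 471, 199, 298 and 1778 EOM cells, and 791, 512, 506, 340, 444 and 1429 TA cells.

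Cells without a Myog UMI held Acta1 in TA and little of it in EOM. In cells with no Myog UMI, Acta1 averaged 0.914 UMIs per 10000 in activated EOM (0.868 to 0.963), against 9.76 in activated TA (9.55 to 9.99), which was 10.7-fold higher in TA. A UMI of Acta1 was seen in 49.3% of these EOM cells and 92.4% of these TA cells. In EOM the mean was 0.940 at 1 Myog UMI, 1.31 at 2 to 4, 2.44 at 5 to 9, 6.66 at 10 to 19 and 34.6 at 20 or more. In TA it was 11.1, 14.7, 20.8, 27.4 and 68.9 over the same classes. TA was 8.51-fold to 11.8-fold higher in the 4 classes up to 9 Myog UMIs, 4.11-fold higher at 10 to 19 and 1.99-fold higher at 20 or more. The highest class had 37.8-fold the Acta1 of the lowest in EOM and 7.06-fold in TA. Cells at the same Myog level were not alike in other genes of differentiation. In Myog-free cells Myod1, the myogenic factor upstream of Myog, averaged 1.79 UMIs per 10000 in activated EOM, against 7.02 in activated TA, and Mymk, the fusion protein myomaker, 0.157 and 0.489. TA was 3.93-fold higher for Myod1 and 3.11-fold higher for Mymk there, and 1.12-fold and 1.05-fold higher in the highest class. Other genes went the other way. Mymx, the fusion peptide, was 3.01-fold higher in EOM at 10 to 19 Myog UMIs and 1.95-fold higher at 20 or more. Ttn, the sarcomere protein titin, was 1.41-fold and 1.19-fold higher in EOM in these classes, while the troponin Tnnt2 was 6.96-fold and 1.73-fold higher in TA. The part of these differences in the Acta1 gap was not tested.

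Actc1 UMIs were few until Myog was high, and their mean was higher in EOM in every class. In Myog-free cells it averaged 0.452 UMIs per 10000 in activated EOM (0.420 to 0.487) and 0.121 in activated TA (0.0983 to 0.148). It was 0.454, 0.616, 1.34, 3.96 and 31.3 in the 5 higher classes of EOM, and 0.141, 0.198, 0.191, 0.707 and 10.1 in those of TA. The ratio of EOM to TA was 3.73 in Myog-free cells, 7.02 at 5 to 9 Myog UMIs and 3.11 at 20 or more. The highest class had 69.2-fold the Actc1 of the lowest in EOM and 82.9-fold in TA.

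Acta2 climbed slowly with Myog in both muscles and held a nearly constant gap. It averaged 12.7 UMIs per 10000 in Myog-free EOM cells and 36.4 in EOM cells with 20 or more Myog UMIs, against 7.48 and 18.997 in the same classes of TA. The ratio of EOM to TA lay between 1.69 and 1.99 over the 6 classes. Actg2 stayed under 0.0202 UMIs per 10000 in every class of both libraries. The cytoplasmic actins went the other way: Actb averaged 36.3 in Myog-free and 23.8 in the highest class of EOM, and 38.2 and 29.5 in those of TA. Actg1 averaged 37.6 and 20.003 in those classes of EOM, and 47.6 and 29.1 in those of TA.

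**Figure D2:**
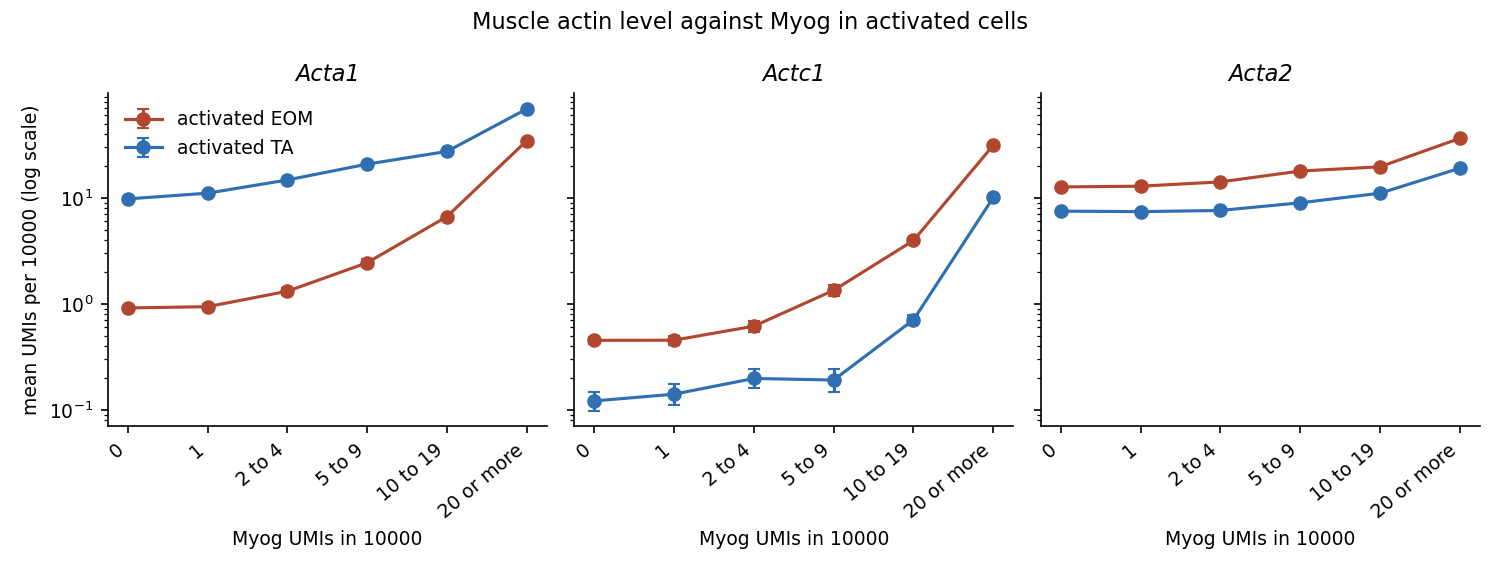
Mean UMIs per 10000 of Acta1, Actc1 and Acta2 on a log axis (y) in 6 classes of Myog UMIs (x), for activated EOM and activated TA, with exact 95% Poisson intervals as bars. The Acta1 lines start 10.7-fold apart and end 1.99-fold apart with TA above, while Actc1 and Acta2 have EOM above in all 6 classes.

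Beside the highest class, the low classes can be read for how much each gene keeps without Myog. Myog-free EOM cells held 2.64% of the Acta1 level of the highest EOM class, 1.44% of its Actc1 and 34.8% of its Acta2, against 14.2%, 1.21% and 39.4% for Acta1, Actc1 and Acta2 in TA. For Mymx, the fusion peptide, it was 1.08% in EOM and 1.10% in TA. Over 9 markers of differentiating muscle with at least 1 UMI in the highest class, these percents ran from 0.804% to 16.0% in EOM, with a median of 2.40%, and from 1.10% to 19.3% in TA, with a median of 5.53%. The Acta1 percent was above that median in both muscles, and the Actc1 percent below it. No cells of another type were found in the activated libraries, so a background level from free RNA was not measured there, and its part in the means of the low classes of both muscles was not tested. That touches Actc1, whose Myog-free percents lay near those of Mymx in both muscles. From Myog-free cells to the highest class, the EOM to TA ratio of Actc1 was 3.73, 3.23, 3.12, 7.02, 5.59 and 3.11. Since a background was not measured, the Actc1 values of the low classes are not read as expression.

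The Acta1 gap of Myog-free cells was also read within parts of these 1589 EOM and 791 TA cells. The parts overlap, and the first holds nearly all of the cells, so their values are not independent of the gap given above. In Myog-free cells with a UMI of Mki67 or Top2a, genes of dividing cells, Acta1 averaged 0.905 UMIs per 10000 in 1492 EOM cells, against 9.63 in 752 TA cells. In Myog-free cells with a UMI of Pax7, the factor of muscle stem cells, it averaged 0.917 in 1042 EOM cells, against 9.31 in 445 TA cells. In cells with no UMI of Myog or of the fusion genes Mymk and Mymx, it averaged 0.886 in 1273 EOM cells, against 8.95 in 507 TA cells. Actc1 was at 0.446 to 0.464 in these EOM groups, against 0.119 to 0.122 in these TA groups, values again not read as expression. Among Myog-holding cells without a UMI of Mki67 or Top2a, Acta1 and Actc1 averaged 43.1 and 37.8 in 936 EOM cells, against 74.3 and 12.4 in 848 TA cells. Split into the 12 clusters of each library with at least 50 cells, Acta1 ran from 84.1 to 8203 CPM in EOM, against 1131 to 13042 CPM in TA. The lowest TA cluster thus lay above the median EOM cluster, which had 296 CPM.

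The make-up of the muscle actin UMIs differed between the muscles in all 6 classes. In Myog-free cells Acta1 took 6.51%, Actc1 3.22% and Acta2 90.2% in EOM, against 56.2% Acta1, 0.698% Actc1 and 43.1% Acta2 in TA. At 20 or more Myog UMIs the shares were 33.8% Acta1, 30.6% Actc1 and 35.6% Acta2 in EOM, against 70.3%, 10.3% and 19.4% in TA. The 3 genes stood at nearly equal parts in the Myog-high EOM cells, and in no class of TA. Within the sarcomeric pair, the Actc1 share was 33.1% in Myog-free and 47.5% in Myog-high EOM cells, against 1.23% and 12.7% in TA cells. Splitting the highest class further, it was 43.6% at 20 to 39 Myog UMIs, 47.5% at 40 to 59 and 52.5% at 60 or more in EOM, against 9.64%, 14.3% and 17.1% in TA. The Actc1 shares of Myog-free and other low classes are not read as expression, since a background from free RNA was not measured.

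**Figure D3:**
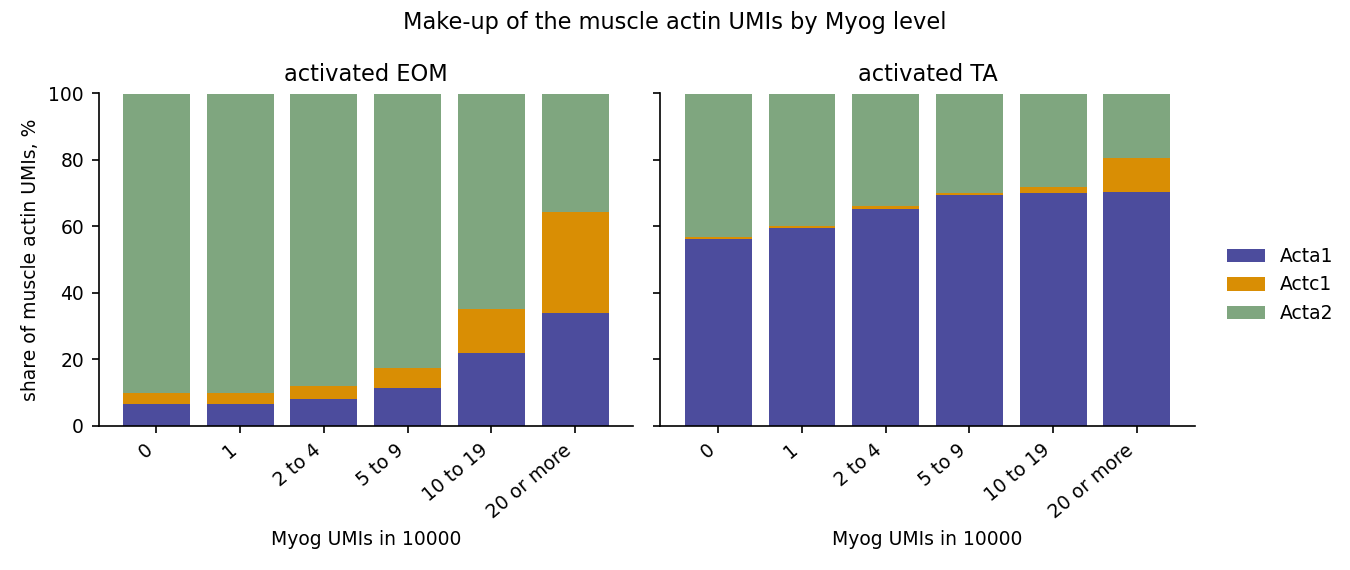
Share of muscle actin UMIs (y, %) taken by Acta1, Actc1 and Acta2 in 6 classes of Myog UMIs (x) in activated EOM (left) and activated TA (right); Actg2, under 0.1% in every class, is too small to draw. Acta2 takes 90.2% in Myog-free EOM cells and Acta1 56.2% in Myog-free TA cells.

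Most Myog-high cells held both sarcomeric actins. Of cells with 20 or more Myog UMIs, 1629 of 1778 held UMIs of both Acta1 and Actc1 in EOM (91.6%, 90.2 to 92.9), against 1017 of 1429 in TA (71.2%, 68.7 to 73.5). Cells with Acta1 alone were 3.43% in EOM and 28.5% in TA, and cells with Actc1 alone 3.94% and 0.0700%. In Myog-free cells Acta1 alone was seen in 32.8% of EOM cells and 82.05% of TA cells, Actc1 alone in 16.7% and 0.632%, and neither in 34.0% and 6.95%. A cell without a UMI at this depth may still hold the RNA. An Actc1 UMI in a Myog-free cell may come from free RNA, whose part was not tested.

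**Figure D4:**
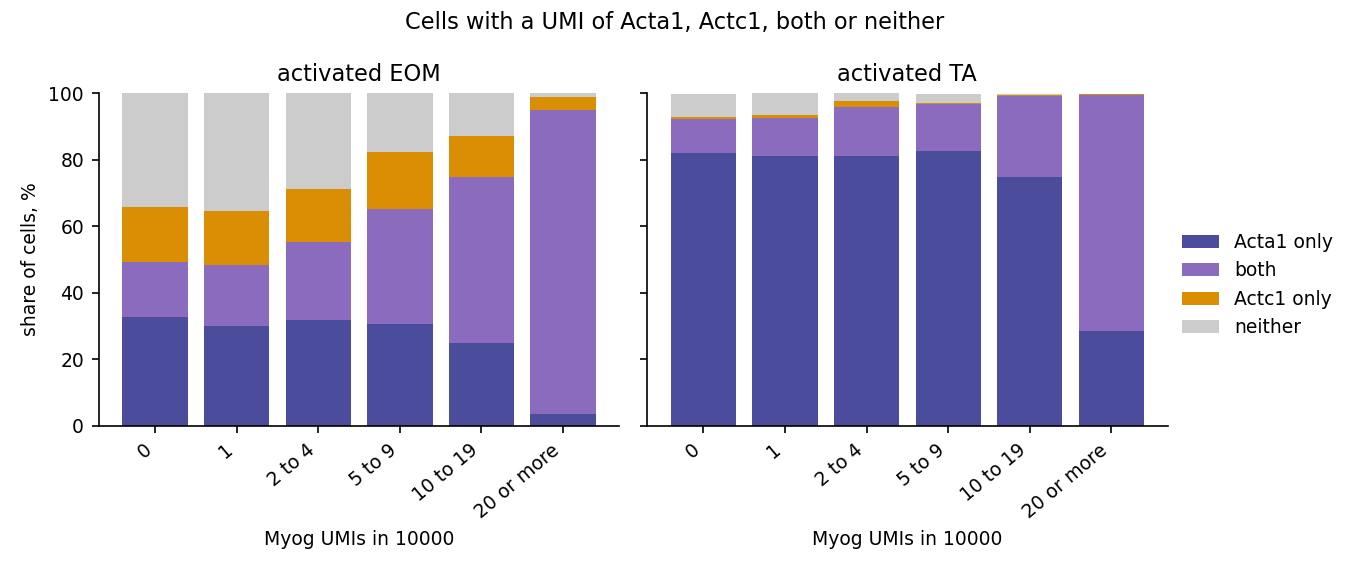
Share of activated cells (y, %) with a UMI of Acta1 only, of both Acta1 and Actc1, of Actc1 only or of neither, in 6 classes of Myog UMIs (x), each cell at 10000 UMIs. Cells with both reach 91.6% in EOM (left) and 71.2% in TA (right) in the highest class, where Acta1 alone is left in 3.43% and 28.5%.

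The per-cell balance spanned a wider range of shares in EOM than in TA. Among Myog-high cells with at least 10 UMIs of the pair, the median Actc1 share was 47.3% in 1552 EOM cells, with the 5th and 95th percentiles at 11.3% and 89.5%. In 1370 TA cells the median was 6% and the percentiles 0% and 33.2%. A share near its lower bound has less room to spread, and low counts widen a share near the middle more. The part of counting error in these ranges was not tested. Actc1 was the larger part of the pair in 700 of these EOM cells and in 5 of these TA cells. Over cells, Acta1 and Actc1 went up together: Pearson's r of their log counts was 0.82 over 5214 EOM cells and 0.56 over 4022 TA cells. Among Myog-high cells alone it was 0.62 over 1778 EOM cells and 0.52 over 1429 TA cells. These cells share 1 library and its free RNA in each muscle, so the correlations are descriptions.

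Weighting the 6 Myog classes equally gave the contrast with Myog held level. On this weighted scale Acta1 came to 781 CPM in activated EOM, against 2544 in activated TA, a ratio of 0.307. Actc1 came to 636 in activated EOM and 190 in activated TA, a ratio of 3.34. Acta2 came to 1892 in activated EOM and 1025 in activated TA, a ratio of 1.85, and Actg2 to 1.23 and 1.24. Of the 4 genes 1 was at least 2-fold higher in EOM, Actc1, against 2% of the 5309 genes tested, and 1 lower, Acta1, against 0.923%. Of the genes tested 17 had a lower log2 ratio than Acta1 and 30 a higher one than Actc1. Without cells that held Mki67 or Top2a, Acta2 was 2-fold higher in EOM too, at a log2 ratio of 1.04. Myog stood at 1145 CPM in EOM and 1066 in TA after weighting. On the same scale the ratio of EOM to TA was 2.18 for Mymx, 0.737 for Mymk and 0.608 for Myod1.

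The proteins that sit on the thin filament gave a mixed picture. Of 19 thin filament partners 16 reached 20 CPM in an activated library, and 0 were at least 2-fold higher and 3 lower in EOM, against 2.06% and 0.944% of the 5297 genes tested. With Myog held level 14 reached that limit, and 1 was higher and 3 lower, against 2% and 0.923% of 5309 genes. The higher one was Lmod3, a leiomodin that nucleates actin filaments, at 90.7 CPM in activated EOM, against 44.3 in activated TA on the weighted scale, and at 129 and 72.6 CPM over all cells. Over the members at 5 CPM or more the median log2 ratio was -0.22 (log2 of CPM plus 1), against -0.01 over all genes at that level. The 3 lower ones, the same in both comparisons, were troponins, which make the thin filament sensitive to calcium. Tnnt2, the cardiac troponin T also made by embryonic skeletal muscle, stood at 246 CPM in activated EOM, against 640 in activated TA. Tnnc1, the slow and cardiac troponin C, stood at 299.6 and 607 CPM, and Tnnc2, the fast troponin C, at 158 and 344 CPM. The tropomyosins Tpm1 and Tpm2, which run along the filament, were at 1526 and 771 CPM in activated EOM and 1096 and 574 CPM in activated TA. The abundant troponins T Tnnt1 (slow) and Tnnt3 (fast) were at 792 and 588 CPM in activated EOM, against 922 and 831 CPM in activated TA. Tnnt2 and Tnnc1 thus ran opposite to Actc1 between the muscles.

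Developmental and cardiac-type sarcomere isoforms, with which Actc1 is often grouped, and adult fast fibre genes were counted in the same way. Of 16 developmental and cardiac-type genes 8 reached 20 CPM. Of these 0 were at least 2-fold higher and 3 lower in EOM, against 2.06% and 0.944% of the 5297 genes tested. Over members at 5 CPM or more the median log2 ratio was -0.62, against -0.01 over all genes at that level. With so few genes a count of 0 higher is near the 2.06% of all genes and is not a result about them. The 3 were Tnnt2, Tnnc1 and Ankrd1, a titin-associated ankyrin repeat protein, at 222 CPM in activated EOM, against 452 in activated TA. Of 14 adult fast fibre genes 9 reached 20 CPM, of which 0 were higher and 1, Tnnc2, lower, against the same 2.06% and 0.944%. Their median was -0.36, against the same -0.01. Mylpf, the fast regulatory myosin light chain, was just short of the limit at 1431 CPM in activated EOM, against 2856 in activated TA. With Myog held level 7 reached the limit, of which 1 was higher in EOM and 2 lower, against 2% and 0.923% of 5309 genes. The higher one was Atp2a1, the calcium pump of fast fibres, at 35.9 CPM in activated EOM, against 16.9 in activated TA. The 2 lower ones were Tnnc2 and Mylpf. Over all cells, Eno3, the muscle enolase, was at 503 and 783 CPM, and Tnni2, the fast troponin I, at 340 and 497 CPM.

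Regulators of actin transcription, other targets of SRF and actin-binding genes were counted next. Of 13 SRF cofactors and related factors 11 were in the files and 7 reached 20 CPM, with 0 at least 2-fold apart and a median log2 ratio of 0.00. Srf itself was at 29.9 CPM in activated EOM, against 33.0 in activated TA. Mef2a, a muscle enhancer factor, was at 146 and 268 CPM, its relative Mef2d at 28.9 and 32.4 CPM, and Tead1, a factor of the Hippo pathway, at 104 and 94.6 CPM. Of 16 SRF targets outside the muscle actins 14 were in the files and 12 reached 20 CPM, again with 0 at least 2-fold apart and a median of -0.14. Tagln, the smooth muscle protein transgelin that often accompanies Acta2, was lower where Acta2 was higher, at 191 CPM in activated EOM, against 302 in activated TA. Tpm4, a cytoskeletal tropomyosin, was at 368 CPM in activated EOM, against 470 in activated TA, Zyx, the focal adhesion protein zyxin, at 207 and 138 CPM, and Cyr61, a secreted matricellular protein, at 137 and 129 CPM. Of 19 genes that bind or turn over actin, 18 reached 20 CPM, 0 were 2-fold apart and the median was 0.00. The monomer-binding thymosins Tmsb4x and Tmsb10 were at 5819 and 4216 CPM in activated EOM, against 7166 and 5084 CPM in activated TA. Pfn1, profilin, was at 1245 and 1479 CPM, and Cfl1, cofilin, at 1035 and 1225 CPM. In lists of this size a count of 0 is near the 2.06% higher and 0.944% lower over all genes and is not a result about them. Myod1 stood at 661 CPM in activated EOM, against 1192 in activated TA, and at 151 CPM in quiescent EOM and 1197 in quiescent TA.

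**Figure D5:**
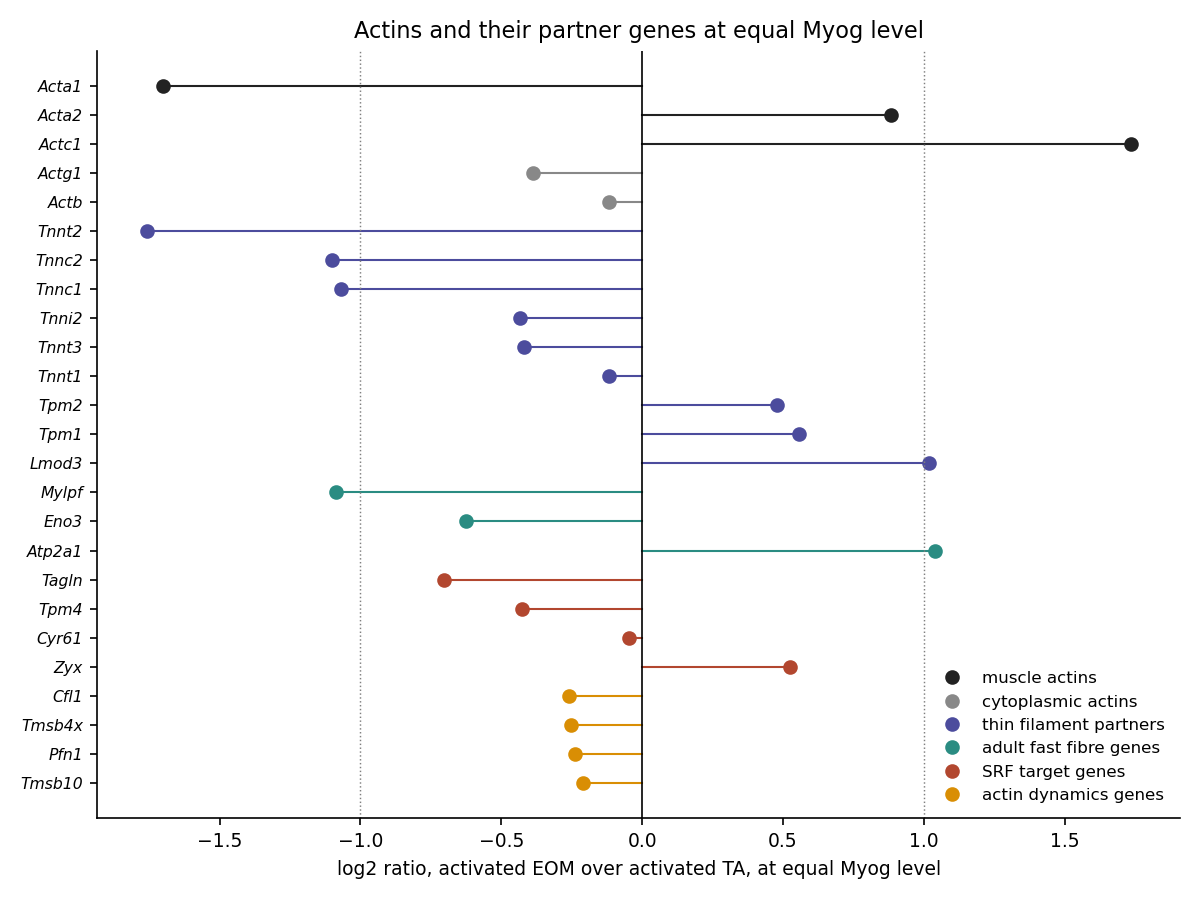
Log2 ratio of activated EOM over activated TA at equal Myog level (x) for the muscle actins, both cytoplasmic actins, and of 4 partner lists the 4 genes with the highest summed CPM plus those at least 2-fold apart (y), at 20 CPM or more; dotted lines mark 2-fold. Acta1 (-1.70) lies to the left with Tnnt2 (-1.76), Tnnc2 (-1.10), Mylpf (-1.09) and Tnnc1 (-1.07), and Actc1 (1.73) lies to the right with Atp2a1 (1.04) and Lmod3 (1.02).

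Acta2 is also a marker of pericytes and vascular smooth muscle, so markers of these mural cells were read beside it. Their summed level over 9 markers was 64.3 CPM in activated EOM, against 22.0 in activated TA, and 163 CPM in quiescent EOM and 164 in quiescent TA. Of the 9, 6 stood higher in activated EOM and 3 stood higher in activated TA. At 20 CPM or more in activated cells were 2, and both were at least 2-fold higher in EOM, against 2.06% of the 5297 genes tested. Pdgfrb, a growth factor receptor of pericytes, was at 30.7 CPM in activated EOM, against 1.07 in activated TA, and Notch3 at 29.6 and 10.8 CPM. Cspg4, the pericyte proteoglycan NG2, went the other way at 2.95 CPM in activated EOM, against 9.07 in activated TA. So did Cnn1, the smooth muscle calponin, at 0.146 and 0.381 CPM, and Kcnj8, a potassium channel of pericytes, at 0.0163 and 0.0586 CPM. Myh11, the smooth muscle myosin that defines contractile smooth muscle, had 3 UMIs in activated EOM, 2 in activated TA, 0 in quiescent EOM and 1 in quiescent TA. Rgs5, a pericyte marker, had 45 UMIs in activated EOM, 5 in activated TA, 38 in quiescent EOM and 77 in quiescent TA. Higd1b, another pericyte marker, had 1, 0, 0 and 1 UMIs in the same order. Of the 9 markers 0 had no UMI in activated EOM, 1 in activated TA, 2 in quiescent EOM and 0 in quiescent TA. Notch3 is expressed by muscle stem cells too. Pdgfrb was among the 10 most raised genes of an activated EOM cluster of 877 cells with Pax7 at 147 CPM. No cluster was named from the mural markers, and 99.3% of cells in activated EOM and 98.2% in activated TA held an Acta2 UMI. The part of mural cells in the Acta2 levels was not tested.

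Among 8243 genes seen in at least 5% of activated cells of both libraries, likeness was taken as the lower of the Pearson correlations over 5214 EOM and 4022 TA cells. The 6 genes most like Acta1 were Mylpf (0.78), Tnnc1 (0.75), Tnnt2 (0.71), Tnnt3 (0.68), Myog (0.68) and Tnni1 (0.68), all but Myog parts of the sarcomere. The 6 most like Actc1 were Myl1 (0.77), Mymx (0.72), Myl4 (0.71), Tnni1 (0.70), Myh3 (0.69) and Lmod3 (0.69). These are embryonic or alkali myosin chains, slow troponin I, the fusion peptide and leiomodin, which nucleates actin filaments. For Acta2 they were Acta1 (0.58), Mylpf (0.57), Tnnt3 (0.55), Tnnc1 (0.54), Myl4 (0.53) and Tmsb4x (0.53), the last a protein that binds actin monomers. Tnni1 was in the lists of both sarcomeric actins, and Mylpf, Tnnc1 and Tnnt3 in those of both Acta1 and Acta2. Actg2 was seen in too few cells for this measure.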

How the data were processed

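Single-cell RNA was counted by the authors with Cell Ranger 3.0.2 on mm10, per the submitters' processing notes. The deposited files hold raw UMI counts per gene and barcode, with no annotation release or library chemistry stated. Barcodes were kept with at least 500 genes and at most 10% mitochondrial UMIs. Scrublet (through scanpy 1.11.5) called 1 doublet at most by its own threshold, so the highest scores were removed at 0.8% per 1000 barcodes, and 16 endothelial-like cells of quiescent TA were left out. A cluster was named from at least 3 markers, and only where its Pax7 was at most 0.5 of the other cells' level, a condition added after clusters were seen. Summed counts were scaled to CPM, which limits precision to the UMI totals of 122868688, 102471329, 17497225 and 15286796 in activated EOM, activated TA, quiescent EOM and quiescent TA. A gene was called at 2-fold with 20 CPM in either library. Folds are plain ratios of CPM, and log2 values use a pseudocount of 1 CPM. The genes named were the muscle and cytoplasmic actins, Myog, the 4 most abundant of each partner list and of the mural list, members 2-fold apart, and the 6 most alike genes. Myod1, Mymk, Mymx, Cdkn1c, Lmod3, Atp2a1, Myh11, Higd1b, Cnn1, Kcnj8 and others outside this rule were chosen after their values were seen. The muscle actins, lists and classes were chosen with earlier results of these data known. The code was tested on simulated data. Alternatives included edgeR 4.0.16 scaling factors (TMM) and median-of-ratios factors on the deposited counts.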

Additional observations from a re-analysis of the deposited data

Results flagged for a closer look

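Actc1 went opposite ways in the 2 states: higher in activated EOM than in activated TA, and lower in quiescent EOM than in quiescent TA, with a log2 ratio of -1.43 in quiescent cells. The difference was not tested, since each group is 1 library. The quiescent value rests on 3 UMIs in EOM and 33 in TA, of which 32 lay in 1 Myog-holding cell.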

How the results depend on the processing

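No paired analysis was possible because each group held 1 library, and none could be left out. Direction between activated EOM and TA was the same under all 10 alternatives for Acta1 (log2 -2.34 to -1.44), Actc1 (1.47 to 1.95) and Acta2 (0.72 to 0.84), and all 20 counts of muscle actins 2-fold apart were unchanged. At equal Myog, Acta1 was at -1.46 with thinning to 5000 UMIs, -1.77 in classes of Myog, Mymk and Mymx, -1.32 in 10 classes of differentiation markers, -1.22 without cells holding Mki67 or Top2a, -1.32 with classes weighted by cells and -1.38 with the highest class split, which was chosen after seeing the data. Actc1 was at 1.56, 1.70, 1.62, 1.76, 1.66 and 1.43 in the same order, and without Mki67 or Top2a 2 of the muscle actins were 2-fold higher in EOM. The Actc1 share of the pair in activated EOM was 40.5% with at most 5% mitochondrial UMIs, 47.0% averaged over cells, 45.4% per kilobase and 44.7% in cells with at least 10 muscle actin UMIs, and in activated TA 3.29%, 9.88%, 9.34% and 5.75%, and 9.22% without doublet removal. In quiescent cells the limit of 5% mitochondrial UMIs left 263 EOM and 46 TA cells. It gave a log2 ratio of 1.44 for Acta1 and 0 for Actc1, against -0.94 and -1.43, 0.42 for Acta2, and 0 muscle actins 2-fold higher. Without a minimum of CPM 2 muscle actins were higher and 2 lower in quiescent EOM. Without the cells holding Myog, an alternative chosen after seeing the data, Actc1 was at 0.14. Why these values moved was not tested.

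Counts over all genes followed the minimum of CPM. Without it 2506 genes were 2-fold higher and 1953 lower in activated EOM (109 and 50 with it), and 2644 higher and 2079 lower in quiescent EOM (164 and 139). In activated against quiescent cells it gave 3605 higher and 9336 lower in EOM (1765 and 1569) and 4001 and 9056 in TA (1922 and 1553). At most 5% mitochondrial UMIs gave 164 higher genes in activated EOM, and 604 higher and 706 lower in quiescent EOM. In quiescent cells, Acta1, Actc1 and Actg2 are limited by their few UMIs.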

Other observations

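The genes with high correlations with the balance of the sarcomeric pair were listed for each muscle. These genes were chosen after their values were seen, from 7753 genes compared in EOM and 7870 in TA, and the correlations are descriptions over cells of 1 library each. In 1552 Myog-high EOM cells, the Actc1 share went up with Cdkn1c (r = 0.35), an imprinted inhibitor of the cell cycle, with Mest (0.28), another imprinted gene, and with Mymx (0.21), and down with Tnnc2 (-0.25), Mylpf (-0.24) and Tnnc1 (-0.19). In 1370 Myog-high TA cells it went up with Myl1 (0.50), Mymx (0.41), Tpm2 (0.41), Tnni1 (0.40) and Mef2c (0.39), and down with Ptma (-0.42), Actg1 (-0.41) and Cfl1 (-0.40). Cdkn1c itself stood at 452 CPM in activated EOM, against 32.5 in activated TA, and at 138 CPM in quiescent EOM and 68.4 in quiescent TA. Mest stood at 467 CPM in activated EOM, against 131 in activated TA.

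In Myog-free cells Acta1 and Acta2 differed in the gene with the highest correlation, but had other companions in common. The gene with the highest correlation with Acta2 was Tagln in both muscles (r = 0.48 over 1589 EOM cells and 0.54 over 791 TA cells), and Crip1 was among the next (0.41 and 0.43). The highest with Acta1 was Mylpf (0.23 in EOM and 0.46 in TA), followed in TA by Tmsb4x (0.33), Tnnc1 (0.32) and Tnnt2 (0.30). Tagln was also high in the list of Acta1 (0.11 in EOM and 0.28 in TA), and Tmsb4x in that of Acta2 (0.47 and 0.27). Mylpf was in the list of Acta2 in EOM (0.34). Tnnt2 in Myog-free cells averaged 0.0617 UMIs per 10000 in EOM and 1.98 in TA, and Mylpf 1.63 in EOM and 8.06 in TA, so both were lower in EOM together with Acta1. Mymx averaged 0.0724 in EOM and 0.0379 in TA. Like Actc1 it is not read as expression in Myog-free cells, since a background from free RNA was not measured there.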
